A study of Mus musculus with 46 samples.

Results

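The CXCR3 and CXCR6 chemokine axes were taken as 6 genes of the 48795 in the expression table: the ligands Cxcl9, Cxcl10 and Cxcl11 with their receptor Cxcr3, and the ligand Cxcl16 with its receptor Cxcr6. They were found by symbol, each matched 1 gene identifier, and they were followed through all 46 RNA-seq samples in 8 groups. CXCL9, CXCL10 and CXCL11 are chemokines induced by interferon, and CXCR3 is the receptor through which activated T cells and NK cells respond to them. CXCL16 is made as a transmembrane protein, mainly by myeloid cells, that can be shed into a soluble chemoattractant, and CXCR6 is carried by activated and tissue-resident T cells and by some NK cells. Both receptors signal through Gi proteins, and both axes are known for the placement of T cells in tumors.

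The samples were 3 cultures of MC-38, a colon carcinoma line of C57BL/6 mice, and 43 tumors grown from it under the skin. In the antibody study, WT C57BL/6NTac females of 8 to 10 weeks carried 3 baseline tumors with no treatment, 5 tumors for isotype control and 5 for the mouse PD-1 antibody muDX400 (PD-1 Ab, 5 mg/kg) after 1 dose at day 4 of treatment, and the same numbers after 2 doses at day 8. In the deletion study, 10 tumors came from PD-1cKO mice and 10 from littermates labelled WT, all females of 8 to 10 weeks. The conditional allele was made in C57BL/6NTac embryonic stem cells. In PD-1cKO mice, Pdcd1 exons 2 and 3 lie between loxP sites. They are removed by the tamoxifen-inducible Rosa26-creERT2, which is active in all cell types. The study also bred mice with these loxP sites but without creERT2, and whether the WT littermates carried the sites is not stated. Mice of both genotypes received tamoxifen at 40 mg/kg on 5 consecutive days. The labels of these 20 tumors read 28d, without saying from which day this counts. The study's RNA-seq table and main figure legend give day 28 after implant. Its methods for tumor collection give day 22, and a supplementary figure gives both. Each tumor was treated as 1 replicate.

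Values are FPKM, read pairs scaled to transcript length and to the mapped total of the library, so that levels can be set side by side between genes. No counts were used, the depth behind each value is unknown, and precision rests on the spread between samples. Because whole tumors were sequenced, fewer cells of a type and less RNA per cell cannot be told apart. Short noncoding RNAs held 30.2 to 66.5% of all FPKM in the deletion study and at most 0.082% in the other samples, so levels are not compared between the studies, and isotype tumor 1 of the 1-dose group stood apart with 54.6% mitochondrial RNA. Whole-gene Pdcd1 was at a median of 8.29 FPKM in PD-1cKO and 3.01 in WT tumors, and since the deletion removes only part of the gene this value does not check it. The keratins and cadherin listed as epithelial markers (Krt8, Krt18, Cdh1) summed to at most 0.521 FPKM in the cultured MC-38 cells.

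Cxcl9, Cxcl10 and Cxcl11 lie next to each other on the minus strand of chromosome 5, within 44.1 kb of the GRCm38 build (Cxcl9 at chr5:92321347-92328079, Cxcl10 at chr5:92346638-92348889, Cxcl11 at chr5:92359544-92365485). Cxcl11 is annotated as a polymorphic pseudogene, since the C57BL/6 strain carries a frameshift in it, so that its values are those of a transcript. Cxcl16 lies at chr11:70453983-70459984 (minus strand), Cxcr6 at chr9:123806475-123811760 (plus strand) and Cxcr3 at chrX:101731535-101734269 (minus strand). Art3, on the opposite strand, spans Cxcl10 and Cxcl11 and shares 133 exon bases with Cxcl10, and Zmynd15 shares 552 exon bases with the opposite strand of Cxcl16. The largest overlap was that of Gm2673, a processed pseudogene on the opposite strand, which shares 1582 of the 3794 exon bases of Cxcl11. Its own mean was at most 0.064 FPKM in any group. The library kit kept the strand, but whether counting used it is not stated, so reads in the shared stretches cannot be assigned for certain. Cxcr6 lies within the span of the oppositely oriented Fyco1, with no shared exon base. At most 0.472% of the 50-base stretches of any member also occurred in a transcript of another gene, read in the sense direction only.

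The 250 bases before the start of Cxcl9 and of Cxcl10, neighboring genes that differed from each other in the cultured cells, are shown as a description. Whether their letters have a part in that difference was not tested. The windows shown are the RefSeq promoters of GRCm38.p6, at chr5:92328080-92328329 and chr5:92348890-92349139, read 5′ to 3′ on the minus strand. Capitals mark matches, on either strand, to the core of the interferon-stimulated response element (ISRE, here GAAA followed after any 2 bases by GAAA), the gamma-activated sequence (GAS, TTCNNNGAA), the AP-1 site (TGANTCA), the NF-kB consensus and the TATA-like letters ATAAATA.
Cxcl9: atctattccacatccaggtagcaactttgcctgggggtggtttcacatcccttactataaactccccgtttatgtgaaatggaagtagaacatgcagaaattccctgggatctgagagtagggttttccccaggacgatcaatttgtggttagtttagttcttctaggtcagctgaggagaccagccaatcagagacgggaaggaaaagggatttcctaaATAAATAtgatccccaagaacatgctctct
Cxcl10: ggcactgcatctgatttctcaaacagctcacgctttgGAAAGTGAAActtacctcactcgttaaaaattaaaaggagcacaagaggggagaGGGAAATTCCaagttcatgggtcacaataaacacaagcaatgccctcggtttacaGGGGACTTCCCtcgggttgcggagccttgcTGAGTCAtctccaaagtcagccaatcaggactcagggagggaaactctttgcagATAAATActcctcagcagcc
The Cxcl10 window held 1 ISRE core, 1 AP-1 match and NF-kB matches at 159 to 150 and at 104 to 94 bases before the start, the latter made of overlapping matches. Of the 5 patterns, the Cxcl9 window matched only the TATA-like letters, at 30 to 24 bases before the start. Among 32851 RefSeq promoters of the same length, 2.98% held the ISRE core, 7.02% the GAS, 6.75% the AP-1 site, 7.25% the NF-kB consensus and 5.17% the TATA-like letters. Windows were available for 4 of the 6 members, not for Cxcl11 or Cxcl16, and those of Cxcr3 and Cxcr6 held none of the 5. A match is a description of these letters. Sites outside this window, or with letters that depart from these patterns, were not searched. A window without a match can thus still hold an interferon or NF-kB site.

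The cultured cells showed which of the transcripts were measured without host tissue. Cxcl10 was at 19.7, 18.7 and 18.2 FPKM in the 3 cultures. Cxcl9 was at 0.0375, 0 and 0.0779 FPKM there and Cxcl11 at 0.0914, 0 and 0.0949. Of the 3 clustered ligands, Cxcl10 alone was thus above 0.1 FPKM in culture. Cxcl16 was at 0.357 to 0.371 FPKM, Cxcr3 at 0.0272 to 0.217 and Cxcr6 at 0.149 to 0.191. The 6 T cell markers summed to at most 0.0228 FPKM in the cultures, with 4 of them listed at 0 in all 3.

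Isotype tumors of the 2-dose group were compared with the cultures by limma on log2(FPKM + 0.1). A gene was called when its Benjamini-Hochberg adjusted p over all tested genes was under 0.01 and the change at least 2-fold. All 5 members that passed the filter of 0.5 FPKM in either group were called higher in the tumors, and Cxcr3 did not pass it. Cxcl9, Cxcl11, Cxcl16 and Cxcr6 averaged under 0.5 FPKM in culture and entered the test only through the tumors. Their calls thus follow in part from the filter and are no support beyond the levels themselves. Among all genes tested, 14.2% were called higher. The log2 difference was 8.84 (SE 0.35) for Cxcl9, 6.89 (SE 0.14) for Cxcl16 and 3.15 (SE 0.38) for Cxcl11. It was 2.62 (SE 0.26) for Cxcl10, which started from its level in culture, and 2.40 (SE 0.45) for Cxcr6. With levels this low in culture the size depends on the constant added: with 1 FPKM in place of 0.1 the log2 difference was 1.12 (SE 0.17) for Cxcl11 and 1.04 (SE 0.25) for Cxcr6, both still called, and 2.57 (SE 0.26) for Cxcl10. The call of Cxcr6 was lost without culture 2, with a log2 difference of 2.34 and an adjusted p of 0.0108 by limma.

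No difference between baseline tumors and isotype tumors of the 2-dose group passed the same test for these genes. None of the 5 tested members was called, against 0.595% of all genes in either direction, and their adjusted p by limma ran from 0.339 to 0.883. At an unadjusted p under 0.05 the test passed 2647 of 14967 genes and none of these 5. Cxcl9 was at 107, 111 and 72.8 FPKM in baseline tumors, inside the range of the isotype tumors, and Cxcr6 was at 2.51, 2.48 and 0.578. The same 5 isotype tumors serve as the reference here, against the cultures and in the 2-dose comparison.

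In the antibody study the groups with PD-1 Ab had the highest medians of all 6 transcripts. For Cxcl9 and Cxcl10, every PD-1 Ab tumor of either dose group, at 163 to 254 FPKM and 209 to 362 FPKM, was above every baseline and isotype tumor, which reached 154 and 181 FPKM. The share of all genes with this pooled separation was not counted. Against the isotype tumors of the same dose alone, separation held for 3.59% of genes tested after 1 dose and 9.23% after 2. The ranges of neighboring groups in the order of medians overlapped otherwise, as did the 1-dose and 2-dose PD-1 Ab groups for each of the 6.

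**Figure D1:**
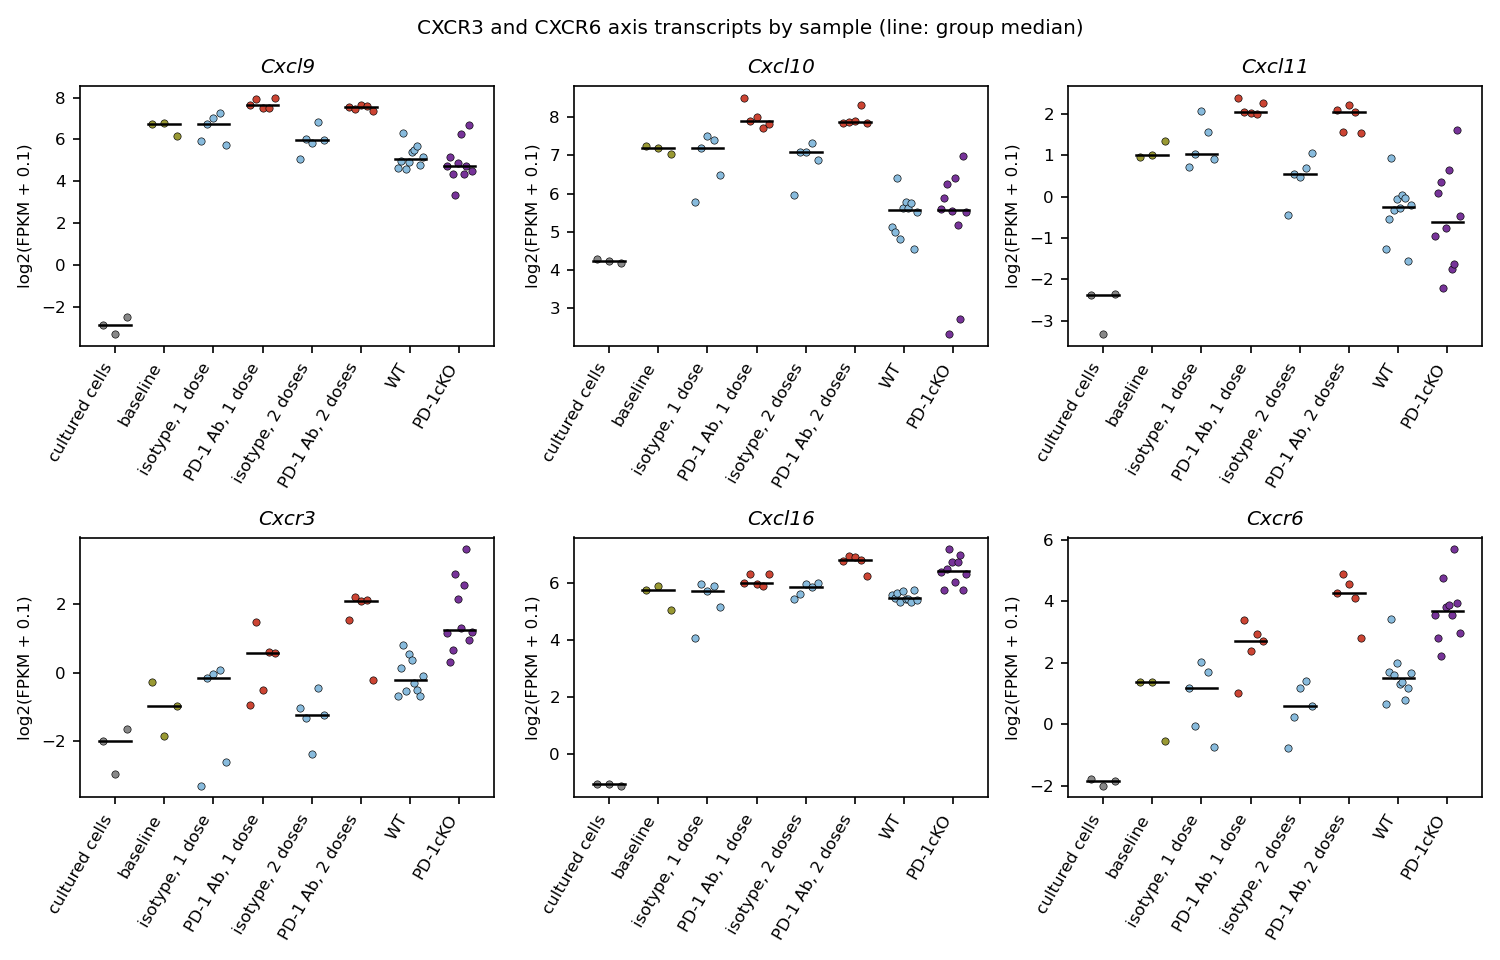
Level of each of the 6 transcripts in every sample, as log2(FPKM + 0.1) on the y axis, by group on the x axis, with 1 point per sample and a line at the group median. Cxcl10 is present in cultured cells, all 5 PD-1 Ab tumors of the 2-dose group lie above all 5 isotype tumors for each gene, and PD-1cKO tumors lie above WT tumors for Cxcl16 but overlap them for the 3 clustered ligands.

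After 2 doses of PD-1 Ab, both receptors and the 3 interferon-induced ligands were higher than in isotype tumors. The fold change on the log2(FPKM + 0.1) scale was 12.2 for Cxcr6, 7.17 for Cxcr3, 2.95 for Cxcl9, 2.69 for Cxcl11, 2.12 for Cxcl10 and 1.95 for Cxcl16. The order depends on the constant added, since with 1 FPKM the log2 fold change was 1.58 for Cxcr3 and 1.55 for Cxcl9, and a difference between receptors and ligands was not tested. By limma, 5 of the 6 members were called higher, against 5.03% of all genes tested, and Cxcl16 fell short of the fold limit only. Cxcr3 averaged 0.346 FPKM in isotype and 3.31 FPKM in PD-1 Ab tumors. It passed the filter of 0.5 FPKM only through the latter, so its place in these counts depends on its rise. With no fold limit all 6 had an adjusted p under 0.01, against 6.69% of all genes higher by that rule. For each of the 6, every PD-1 Ab tumor was above every isotype tumor, which held for 9.23% of all genes tested. The median log2 fold change of the 6 was 1.49, beside -0.04 over all genes tested.

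Cxcl9, the ligand most strictly dependent on interferon gamma, was at 33.6, 64.0, 57.5, 116 and 62.9 FPKM in the isotype tumors. It was at 185, 173, 199.8, 194 and 163 FPKM in the PD-1 Ab tumors. The PD-1 Ab tumors were alike and the groups did not overlap, with a log2 fold change of 1.56 (SE 0.25, adjusted p = 0.00185). Cxcl9 stayed called in all 20 alternative analyses, with log2 fold changes of 1.34 to 1.86.

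Cxcl10 was the most abundant of the 6 transcripts in both groups by median. It was at 62.7, 136, 135, 161 and 117 FPKM in isotype tumors and at 229.8, 234, 237, 318 and 229 FPKM in PD-1 Ab tumors. PD-1 Ab tumor 4 was higher than the other 4, which lay within a narrow range. This made a log2 fold change of 1.09 (SE 0.22, adjusted p = 0.00601). This change lay close to the limits, and Cxcl10 was not called in 11 of 20 alternatives, among them those without any single one of PD-1 Ab tumors 1 to 4 or isotype tumors 1, 2 or 5 (log2 fold change 0.86 to 1.14, adjusted p 0.0039 to 0.0177 by limma).

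Cxcl11 was far lower than its neighbors, at 0.635, 1.35, 1.28, 1.51 and 1.98 FPKM in isotype tumors. What its exon overlap with Gm2673 does to this level was not tested. It was at 4.14, 2.84, 4.57, 4.01 and 2.80 FPKM in PD-1 Ab tumors, again with no overlap. On the log2 scale it was higher by 1.43 (SE 0.27, adjusted p = 0.00455). The call was lost without PD-1 Ab tumor 1, 3 or 4 or isotype tumor 2, with adjusted p of 0.0104 to 0.0176 by limma and log2 fold changes of 1.34 to 1.44, and with 1 FPKM added, where the log2 fold change of 1.00 was just short of 2-fold.

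Cxcr3 was low in isotype tumors, at 0.386, 0.297, 0.0902, 0.634 and 0.324 FPKM. In PD-1 Ab tumors it was at 2.80, 4.60, 4.17, 4.25 and 0.755 FPKM. PD-1 Ab tumor 5 was the lowest of its group, just above the highest isotype tumor. On the log2 scale Cxcr3 was higher by 2.84 (SE 0.49, adjusted p = 0.00298), and the call was lost without PD-1 Ab tumor 2 or 3 (log2 fold changes of 2.67 and 2.71, adjusted p = 0.0109 and 0.0119 by limma). With 1 FPKM added in place of 0.1 the log2 fold change was 1.58 and stayed called.

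Cxcl16 was at 43.8, 49.3, 63.4, 58.8 and 63.9 FPKM in isotype tumors and at 109, 125, 121, 113 and 76.9 FPKM in PD-1 Ab tumors. The same PD-1 Ab tumor 5 was the lowest of its group. Its log2 fold change of 0.96 (SE 0.15, adjusted p = 0.00183) was short of 2-fold. Zmynd15, which overlaps it on the opposite strand, rose from a mean of 20.8 to 45.7 FPKM. Its log2 fold change was 1.13 (SE 0.14, adjusted p = 0.000885 by limma), and what its reads add to the Cxcl16 value was not tested.

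Cxcr6 had the largest log2 fold change of the 6, on either constant. It was at 0.486, 1.09, 2.14, 2.53 and 1.40 FPKM in isotype tumors and at 19.1, 29.7, 23.5, 17.2 and 6.85 FPKM in PD-1 Ab tumors. The lowest PD-1 Ab tumor, again tumor 5, was above every isotype tumor. The rise was 3.60 on the log2 scale (SE 0.44, adjusted p = 0.000885), and Cxcr6 stayed called in all 20 alternatives at log2 fold changes of 2.94 to 4.36.

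Markers of several cell types moved with the members in this comparison. All 6 T cell markers were called higher, with the summed level at 7.67 to 17.8 FPKM in isotype and 35.2 to 146 FPKM in PD-1 Ab tumors. Of the 6 macrophage and monocyte markers 5 were called higher, with the sum at 384 to 581 FPKM in isotype and 699.8 to 1449 FPKM in PD-1 Ab tumors. Of the 6 dendritic cell markers Xcr1 and Clec9a were called higher, and 4 had a positive log2 fold change. The dendritic cell sum had a median of 229 FPKM in isotype (199 to 299) and 188 FPKM in PD-1 Ab tumors (157 to 217). It was 174 to 184 FPKM in the cultures. None of the 3 tested NK cell markers was called, with the NK sum at 1.35 to 2.43 FPKM in isotype and 2.11 to 4.94 FPKM in PD-1 Ab tumors. The NK sum was already 1.16 to 1.42 FPKM in the cultures, where Klra8, Klrb1c and Ncr1 were listed at 0. Single markers of endothelium (Pecam1), adipose tissue (Plin1) and muscle (Acta1) were called higher, and of 3 neutrophil markers Csf3r was called higher and S100a8 lower. Their part in the ligand and receptor values was not tested, except by the ratios to CD3 transcripts given further on.

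The genes of the interferon gamma route were measured beside the ligands. Of 12 genes of that list, 6 were called higher and none lower after 2 doses, and the list's median log2 fold change was 1.08. Ifng itself, the cytokine, had a median of 1.35 FPKM in isotype and 7.10 FPKM in PD-1 Ab tumors (log2 fold change 2.52, SE 0.34). Ciita, the activator of MHC class II genes, was 2.22 (SE 0.32) higher on the log2 scale. Irf1, an interferon-induced transcription factor, had an adjusted p of 0.00349 by limma but a log2 fold change of only 0.62 (SE 0.11) and was not called.

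Of the partners of the 2 axes, Dpp4, the peptidase that trims CXCL9 to CXCL11, and Pf4 (CXCL4), a platelet chemokine described as a further CXCR3 ligand, were called higher. The log2 fold change was 1.91 (SE 0.38) for Dpp4 and 1.06 (SE 0.20) for Pf4, and these were 2 of 7 tested genes of the list. Ackr3, a scavenging receptor that binds CXCL11, had a log2 fold change of 0.53 (SE 0.13, adjusted p = 0.0158 by limma). The sheddases of CXCL16 were not called: Adam10 had a log2 fold change of 0.38 (SE 0.25) and Adam17 of 0.42 (SE 0.14). Downstream of the receptors, 7 of 21 tested signaling genes were called higher, among them the T cell kinase Lck (2.20, SE 0.34) and Dock2 (1.72, SE 0.25), which activates Rac in migrating leukocytes, both as log2 fold changes.

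After 1 dose, at day 4, none of the 6 was called, and neither was any of the 14556 genes tested (0.0% by limma, with 895 genes at an unadjusted p under 0.05). All 6 had positive log2 fold changes, with a median of 1.15 beside 0.26 over all genes tested, and 5 of them, all but Cxcr3, had an unadjusted p under 0.05. Cxcl9 was at 60.5, 106, 129, 154 and 52.6 FPKM in isotype and at 201, 244, 184, 183 and 254 FPKM in PD-1 Ab tumors. Cxcl10 was at 55.2, 146, 181, 167 and 89.3 FPKM in isotype and at 362, 238, 255, 209 and 226 FPKM in PD-1 Ab tumors. For these 2 ligands every PD-1 Ab tumor was above every isotype tumor, which held for 3.59% of all genes tested.

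The 1-dose log2 fold change was 1.19 (SE 0.29, adjusted p = 0.276) for Cxcl9, 1.11 (SE 0.31, adjusted p = 0.392) for Cxcl10 and 0.88 (SE 0.28, adjusted p = 0.490) for Cxcl11. It was 1.67 (SE 0.57, adjusted p = 0.569) for Cxcr6, 1.45 (SE 0.75, adjusted p = 0.825) for Cxcr3 and 0.74 (SE 0.33, adjusted p = 0.796) for Cxcl16. With 1 FPKM added Cxcr3 was at 0.55 (SE 0.28, adjusted p = 0.798). Cxcr6 was at 2.16, 0.855, 4.01, 3.12 and 0.498 FPKM in isotype and at 1.94, 10.4, 5.07, 7.57 and 6.47 FPKM in PD-1 Ab tumors, so that 4 of 5 PD-1 Ab tumors were above all isotype tumors. Without isotype tumor 1, the library rich in mitochondrial RNA, the log2 fold change was 1.04 for Cxcl9 (adjusted p = 0.0902) and 0.84 for Cxcl10 (adjusted p = 0.0891). That library decided much of 2 other values: without it Cxcl16 was at 0.41 (adjusted p = 0.224), and Cxcr3, listed at 0 in it, was at 0.92 (adjusted p = 0.492). Rescaling to the median of ratios moved the median of all genes from 0.26 to 0.01, and Cxcl9 was then at 0.94, Cxcl10 at 0.86 and Cxcr6 at 1.42. Isotype tumors 1 to 3 carry sample identifiers from another run than the other 7 tumors, and with that run as a covariate none of the 6 was called (adjusted p = 1.0 for each).

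The effect of 2 doses was not separable from that of 1 dose. By limma on the difference of the 2 effects, none of the 6 and none of 15289 genes (0.0%) passed an adjusted p of 0.01, with 1182 genes at an unadjusted p under 0.05, Cxcr6 among them. The difference in log2 effect was 1.93 (SE 0.76, adjusted p = 0.623) for Cxcr6 and 1.39 (SE 0.93, adjusted p = 0.629) for Cxcr3. For Cxcl10 it was -0.02 (SE 0.40, adjusted p = 0.981).

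In PD-1cKO tumors, both receptors were higher than in WT tumors while the 3 interferon-induced ligands did not pass the test in either direction. Cxcr6 was 4.44-fold and Cxcr3 3.44-fold higher on the log2(FPKM + 0.1) scale, and both were called by limma. These were 2 of 6 members, against 4.2% of all genes called higher. Over all genes 633 were called higher and 584 lower, a split that became 924 to 339 when scaled to the median of ratios. With no fold limit Cxcl16 passed as well, against 8.78% of all genes higher by that rule. The median log2 fold change of the 6 was 0.38, beside -0.20 over all genes tested, and rescaling to the median of ratios moved the latter to -0.04.

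Cxcr6 ranged from 1.48 to 10.7 FPKM in the 10 WT tumors, with a median of 2.73. It ranged from 4.53 to 51.8 FPKM in the 10 PD-1cKO tumors, with a median of 12.9. WT tumor 3 was the highest of its group, and 7 of 10 PD-1cKO tumors were above it. On the log2 scale Cxcr6 was higher by 2.15 (SE 0.37, adjusted p = 0.000726).

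Cxcr3 ranged from 0.521 to 1.65 FPKM in WT tumors (median 0.765) and from 1.14 to 12.2 FPKM in PD-1cKO tumors (median 2.28). Of 10 PD-1cKO tumors, 8 were above all WT tumors, and the rise on the log2 scale was 1.78 (SE 0.35, adjusted p = 0.0015).

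Cxcl16 was the one member whose groups did not overlap, which held for 0.643% of all genes tested. It ranged from 40.0 to 53.7 FPKM in WT tumors (median 44.5) and from 54.7 to 147 FPKM in PD-1cKO tumors (median 87.2). The change of 0.93 on the log2 scale (SE 0.16, adjusted p = 0.000726) was just under the limit of 2-fold and passed that limit under each of 3 other scalings (1.07 to 1.11). The overlapping Zmynd15 had a log2 fold change of 0.49 (SE 0.15, adjusted p = 0.0149 by limma).

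The clustered ligands spanned wider ranges in PD-1cKO than in WT tumors, and none of the 3 passed the test. Cxcl9 ranged from 24.0 to 78.0 FPKM in WT (median 33.4) and from 10.1 to 103 FPKM in PD-1cKO tumors (median 26.5). Cxcl10 ranged from 23.3 to 84.5 FPKM in WT (median 47.5) and from 4.93 to 125 FPKM in PD-1cKO tumors (median 47.7). Cxcl11 ranged from 0.243 to 1.82 FPKM in WT (median 0.745) and from 0.117 to 2.93 FPKM in PD-1cKO tumors (median 0.558). The log2 fold changes were -0.30 (SE 0.32, adjusted p = 0.457), -0.18 (SE 0.47, adjusted p = 0.769) and -0.18 (SE 0.41, adjusted p = 0.740). The signs of Cxcl10 and Cxcl11 rest on single tumors: without PD-1cKO tumor 4 they turned to 0.14 and 0.011, and without tumor 8 Cxcl10 turned to 0.10. The sample identifiers fall into runs, and with the run as a covariate Cxcl10 was at -1.23 (SE 0.80, adjusted p = 0.238), Cxcl11 at -0.41 (SE 0.73, adjusted p = 0.689) and Cxcl9 at -0.078 (SE 0.57, adjusted p = 0.929), so that the size of a shift in Cxcl10 is not settled by these tumors. The difference in spread itself was not tested.

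PD-1cKO tumors 4 and 8 had the lowest Cxcl10 of the 20 tumors together with the highest Cxcr3, Cxcl16 and Cxcr6. Cxcl10 was at 4.93 and 6.52 FPKM there. Cxcr3 was at 7.32 and 12.2 FPKM and Cxcl16 at 147 and 127 FPKM in the same 2 tumors. Their Cxcr6 was at 27.2 and 51.8 FPKM. In tumors 6 and 9, Cxcl10 was at 84.7 and 125 FPKM and Cxcr3 at 2.36 and 1.82 FPKM. Library composition moved with these values: short noncoding RNA held 64.0 and 66.5% of FPKM in tumors 4 and 8, the highest shares of the 20, and 43.8 and 31.1% in tumors 6 and 9.

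The 3 identifier runs of the deletion study followed the genotype, with 7 PD-1cKO tumors in a run without WT tumors. Within the run that held 9 WT tumors there was 1 PD-1cKO tumor, number 8, whose Cxcr6 of 51.8 FPKM compares with 1.48 to 10.7 FPKM in those WT tumors and whose Cxcr3 of 12.2 FPKM compares with 0.521 to 1.65. Its Cxcl10 of 6.52 FPKM was below the 23.3 to 84.5 FPKM of those WT tumors. In the third run, PD-1cKO tumors 9 and 10 had 15.4 and 7.68 FPKM of Cxcr6 against 3.10 FPKM in 1 WT tumor, 1.82 and 2.19 FPKM of Cxcr3 against 0.826, and 125 and 46.1 FPKM of Cxcl10 against 45.8. With the run as a covariate the log2 fold changes were 3.13 (SE 0.63) for Cxcr6, 2.64 (SE 0.61) for Cxcr3 and 1.11 (SE 0.28) for Cxcl16. The adjusted p by limma was then 0.0254, 0.0257 and 0.0257, so that none was called, as was no gene of the table.

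T cell markers moved with the receptors in this comparison too. All 6 were called higher, and their sum ranged from 9.43 to 37.4 FPKM in WT and from 23.5 to 94.4 FPKM in PD-1cKO tumors. Of the macrophage and monocyte markers, Cd68 and C1qa of 6 were called higher, with the sum at 432 to 769 FPKM in WT and 636 to 2048.5 FPKM in PD-1cKO tumors. None of 5 tested dendritic cell markers and none of 2 tested NK cell markers was called. The neutrophil markers S100a8 and Csf3r, 2 of 3 tested, were called higher, as was the fibroblast gene Col1a1, and the part of these cells in the receptor and ligand values was not tested beyond the CD3 ratios.

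Of the interferon gamma route, 2 of 12 genes were called higher in PD-1cKO tumors and none lower, with a median log2 fold change of 0.35. These were Irf8 (1.06, SE 0.14), a transcription factor of myeloid cells, and Ifng (1.02, SE 0.27, median 2.09 FPKM in PD-1cKO and 0.860 in WT tumors). Irf1 had a log2 fold change of 0.05 (SE 0.19, adjusted p = 0.846 by limma). Among the axis partners Pf4 was called higher (1.05, SE 0.22), 1 of 7 tested, and Dpp4 was not (0.94, SE 0.33, adjusted p = 0.0262 by limma). Ackr3 (0.20, SE 0.14), Adam10 (-0.17, SE 0.19) and Adam17 (-0.19, SE 0.13) were not called. Of 21 signaling genes, 5 were called higher, among them Lck (1.58, SE 0.28) and Pik3r5 (1.28, SE 0.24), a regulatory subunit of PI3K gamma.

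The 2-dose and PD-1cKO effects were compared directly. None of the 6 members passed an adjusted p of 0.01 for the difference, against 0.0975% of the 16404 genes tested by limma (16 genes, with 2585 at an unadjusted p under 0.05). The largest difference among the ligands was that of Cxcl9, at 1.86 (SE 0.51, unadjusted p = 0.000994, adjusted p = 0.0837) on the log2 scale, followed by Cxcl11 at 1.60 (SE 0.63, adjusted p = 0.230) and Cxcl10 at 1.26 (SE 0.71, adjusted p = 0.367). The difference was 1.45 (SE 0.64, adjusted p = 0.270) for Cxcr6, 1.06 (SE 0.63, adjusted p = 0.388) for Cxcr3 and 0.03 (SE 0.25, adjusted p = 0.965) for Cxcl16. With 1 FPKM added it was 0.38 (SE 0.44) for Cxcr3 and 1.01 (SE 0.31) for Cxcl11. The 2 studies differ in library composition, tamoxifen and day as well as in the means of blocking PD-1, and these cannot be told apart.

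**Figure D2:**
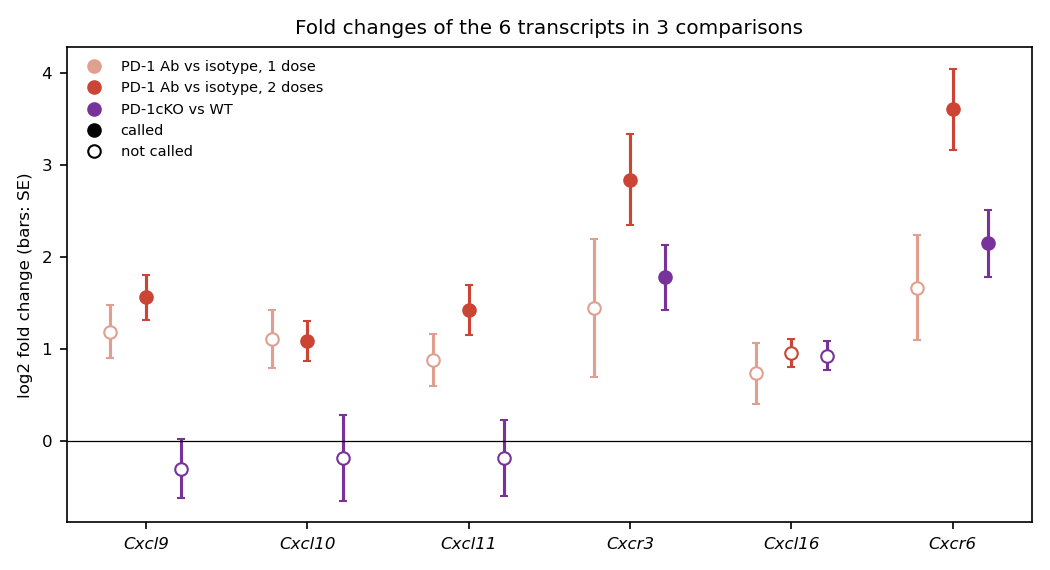
Log2 fold change of each transcript (y axis, error bars are standard errors from limma) in 3 comparisons, with filled points for called and open points for uncalled genes. The receptors are filled in the 2-dose and PD-1cKO comparisons, whereas Cxcl9, Cxcl10 and Cxcl11 are filled in the 2-dose comparison and lie at -0.30 to -0.18 in PD-1cKO tumors.

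Whether the receptors moved beyond the T cell transcripts was asked with a ratio within each tumor, the log2 difference between the receptor and the mean of Cd3d, Cd3e and Cd3g, which encode chains of the T cell receptor complex. In total 12 such differences, 4 ratios in 3 comparisons, were tested with 2-sided permutation tests, exact for 5 against 5 tumors, and adjusted together. Cxcr6 was -1.27, -0.29, -0.50, -0.18 and -0.66 against CD3 in the isotype tumors of the 2-dose group. It was 0.47, 0.47, 0.40, 0.12 and 0.43 in the PD-1 Ab tumors, every one above every isotype tumor. The mean difference was 0.96 (exact p = 0.00794, the smallest that these group sizes allow, adjusted p = 0.0476).

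In the deletion study, Cxcr6 against CD3 averaged 1.12 ± 0.49 (SD, n = 10) in PD-1cKO and 0.58 ± 0.30 (SD, n = 10) in WT tumors. The difference was 0.54 (permutation p = 0.00604, adjusted p = 0.0476), and 6 of 10 PD-1cKO tumors were above all WT tumors. The adjusted p passed 0.05 when single tumors were left out, being 0.0531 to 0.0818 without any of PD-1cKO tumors 1, 4, 5, 8, 9 or 10 or WT tumors 1, 2, 4 or 6 to 10, with differences of 0.44 to 0.56. Within the run of 9 WT tumors, PD-1cKO tumor 8 was at 2.06 against at most 1.00 in WT, and in the third run tumors 9 and 10 were at 1.14 and 1.12 against 0.67.

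Cxcr3 against CD3 passed in none of the 3 comparisons. It differed by 0.19 after 2 doses (exact p = 0.833), by -0.69 after 1 dose (exact p = 0.0476, adjusted p = 0.143) and by 0.17 in PD-1cKO tumors (permutation p = 0.502). The sign for 2 doses and for PD-1cKO turned with 1 FPKM added, to -0.64 and -0.056, and that for 2 doses turned to -0.22 without isotype tumor 3, whose Cxcr3 of 0.0902 FPKM was the lowest of its group. With 1 FPKM added the 1-dose difference was -0.82, with an adjusted p of 0.0381 by permutation. Cxcr6 against Cxcr3 directly differed by 0.76 after 2 doses (exact p = 0.206) and by 0.37 in PD-1cKO tumors (permutation p = 0.141). Whether the receptors differed depends on the constant, since with 1 FPKM added these differences were 1.36 and 0.65, each with an adjusted p of 0.0238 by permutation. After 1 dose, Cxcr6 against CD3 differed by -0.47 (exact p = 0.722), and by 0.13 without isotype tumor 1, which alone stood at 3.01.

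**Figure D3:**
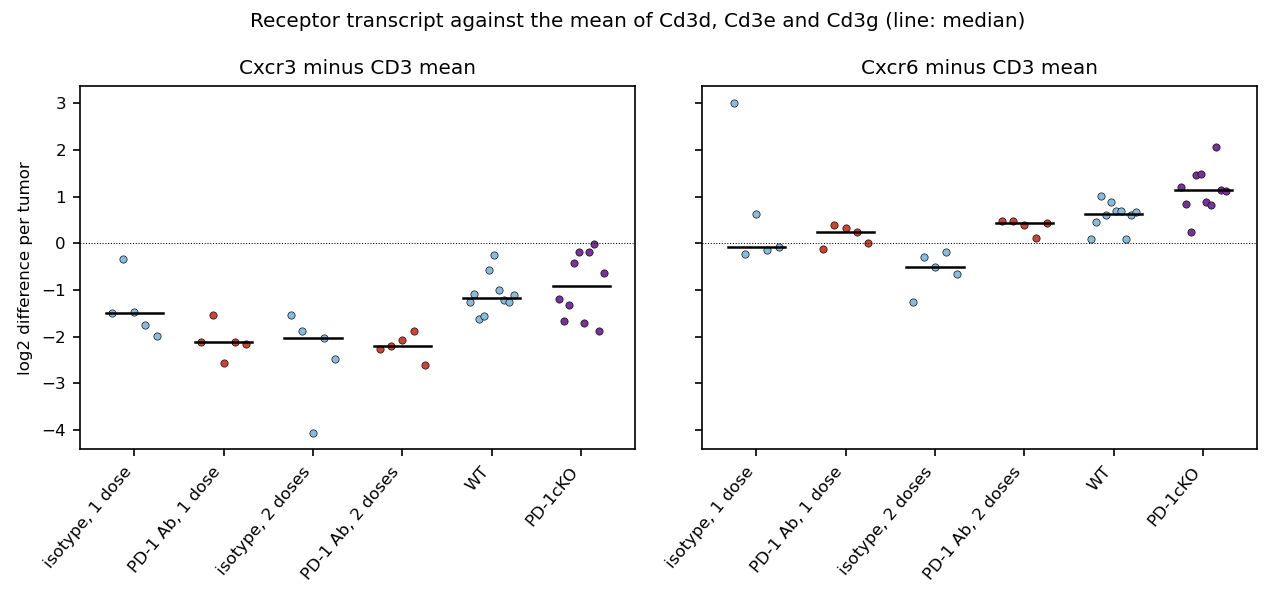
Log2 difference per tumor between Cxcr3 (left) or Cxcr6 (right) and the mean of the 3 CD3 chain transcripts, by group, with 1 point per tumor and a line at the median. For Cxcr6 the PD-1 Ab tumors of the 2-dose group lie above their isotype tumors and the PD-1cKO tumors have a higher mean than WT tumors (1.12 against 0.58), while for Cxcr3 the groups overlap.

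The balance of the 2 main CXCR3 ligands was compared in the same way. Cxcl9 was lower than Cxcl10 by a mean log2 difference of 0.92 in isotype tumors of the 2-dose group and of 0.44 in PD-1 Ab tumors. The change of 0.48 had an exact p of 0.0238 and an adjusted p of 0.0952, with 3 of 5 PD-1 Ab tumors above all isotype tumors. It was 0.08 after 1 dose (exact p = 0.778) and -0.12 in PD-1cKO tumors (permutation p = 0.766). In PD-1cKO tumors the ratio itself ran from -1.92 in tumor 3 to 1.02 in tumor 4 and 2.02 in tumor 8, whereas WT tumors ran from -0.71 to 0.21.

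Across tumors within a genotype, 5 pairs of transcripts were correlated in each of the 2 groups of 10, with permutation p-values adjusted over the 10 pairs. Cxcr3 and Cxcr6 were correlated in PD-1cKO (r = 0.84, permutation p = 0.00189, adjusted p = 0.00797; rho = 0.75, adjusted p = 0.0396) and in WT tumors (r = 0.80, permutation p = 0.00182, adjusted p = 0.00797; rho = 0.81, adjusted p = 0.0383). Without the 2 tumors farthest from the median of Cxcr3, r was 0.54 in each group (exact p = 0.170 and 0.165), and neither passed over the 8 tumors and narrower range that remained. Within the largest identifier run, which lacks PD-1cKO tumors 8 to 10, r was 0.80 in 7 PD-1cKO tumors (exact p = 0.0266, adjusted p = 0.0665) and 0.80 in 9 WT tumors (exact p = 0.00303, adjusted p = 0.0180).

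Cxcl10 and Cxcr3 were related in opposite directions in the 2 genotypes. In PD-1cKO tumors r was -0.83 (permutation p = 0.00239, adjusted p = 0.00797) and rho -0.77 (adjusted p = 0.0396). In WT tumors r was 0.70 (permutation p = 0.0255, adjusted p = 0.0425) and rho 0.70 (adjusted p = 0.05003). Without the 2 tumors farthest from the median of Cxcl10, which are tumors 4 and 8 in PD-1cKO and 3 and 9 in WT, r was -0.56 (exact p = 0.144) and 0.38 (exact p = 0.341), and neither passed over the 8 tumors and narrower range that remained. The r of PD-1cKO tumors was -0.84 (adjusted p = 0.00933 by permutation) on protein-coding totals, which leave out short noncoding RNA, and -0.82 (adjusted p = 0.00737) by median of ratios. Within the largest run r was -0.73 in 7 PD-1cKO (exact p = 0.0169, adjusted p = 0.0562) and 0.70 in 9 WT tumors (exact p = 0.0385, adjusted p = 0.0770). The WT relation also had an adjusted p over 0.05 without any single one of tumors 1, 3 to 6, 9 or 10. The difference between the genotypes in this relation was not tested.

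Cxcl9 followed Ifng in both genotypes. The r was 0.79 in PD-1cKO (permutation p = 0.00769, adjusted p = 0.0154; rho = 0.81, adjusted p = 0.0383) and 0.84 in WT tumors (permutation p = 0.00405, adjusted p = 0.0101; rho = 0.73, adjusted p = 0.0396). Leaving out the 2 farthest tumors brought r to 0.44 in each (exact p = 0.286 and 0.282), and neither passed over the 8 tumors that remained. Within the largest run r was 0.80 in PD-1cKO (exact p = 0.0470, adjusted p = 0.0784) and 0.85 in WT (exact p = 0.00360, adjusted p = 0.0180). Without PD-1cKO tumor 9 alone the adjusted p in PD-1cKO was 0.0741. Without WT tumor 3 alone the adjusted p in WT was 0.157 for Cxcl9 with Ifng, 0.109 for Cxcr3 with Cxcr6 and 0.217 for Cxcl10 with Cxcr3.

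The remaining ligand and receptor pairs did not pass. Cxcl9 with Cxcr3 had r = -0.43 in PD-1cKO (permutation p = 0.214, rho = -0.30) and r = 0.55 in WT tumors (permutation p = 0.0987, rho = 0.58), the latter reaching an adjusted p of 0.0386 without WT tumor 8. Cxcl16 with Cxcr6, the single ligand and receptor of the second axis, had r = 0.52 in PD-1cKO (permutation p = 0.126, rho = 0.37) and r = 0.34 in WT tumors (permutation p = 0.363, rho = 0.19). Within the largest run these were -0.52 and 0.55 for Cxcl9 with Cxcr3 and 0.56 and 0.36 for Cxcl16 with Cxcr6.

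**Figure D4:**
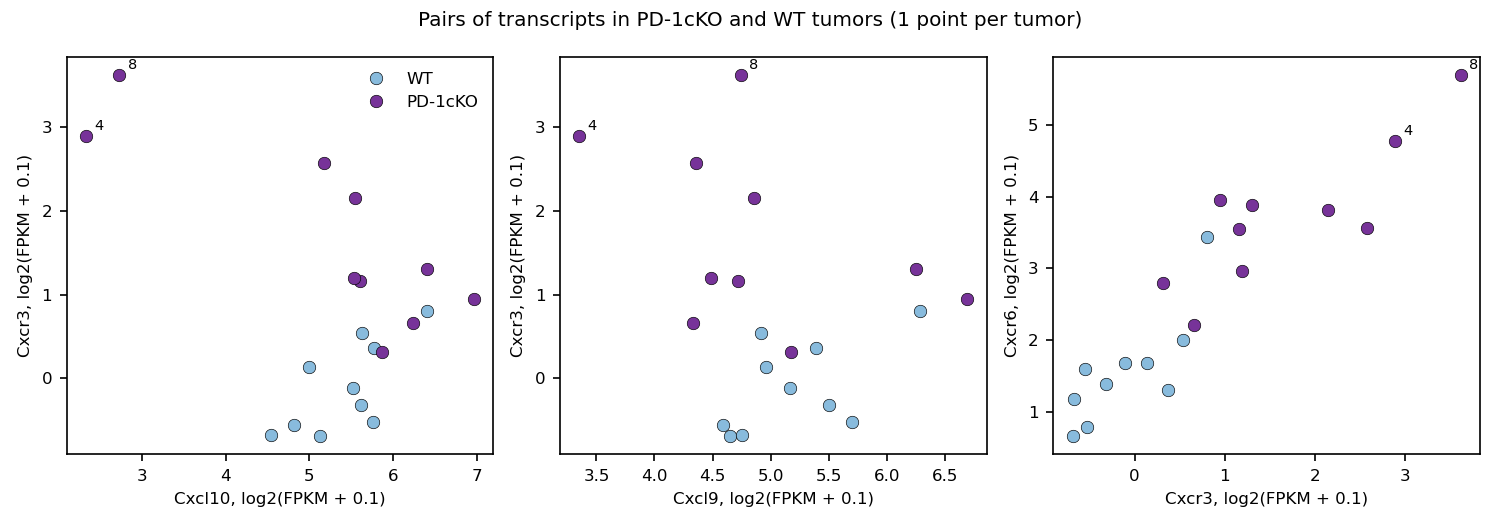
Cxcr3 against Cxcl10, Cxcr3 against Cxcl9 and Cxcr6 against Cxcr3 in the deletion study, both axes as log2(FPKM + 0.1), with 1 point per tumor and PD-1cKO tumors 4 and 8 numbered. Those 2 tumors have the lowest Cxcl10 and the highest Cxcr3 of the 20.

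The 3 genes whose pattern was most like each member were found by Pearson's r over the 43 tumors, as a description in which tumors share groups and libraries, and again with group means subtracted. The first r pools FPKM of both studies, whose library composition differs, so it also holds their shift in level. Subtracting group means takes out the shift between groups only. Differences in composition between tumors of a group remain, such as 31.1 to 66.5% short noncoding RNA among PD-1cKO tumors. For Cxcl9 they were Ifi47 (r = 0.97), Cxcl11 and Ifi211 (0.93 each), and with group means subtracted Ifi47 (0.91), Gbp4 (0.89) and Tgtp2 (0.88). For Cxcl10 they were Oasl2, Rtp4 and Zbp1 (0.95, 0.95 and 0.94), and within groups Zbp1 (0.96), Xaf1 (0.93) and Troap (0.90). For Cxcl11 they were Oasl2 (0.96), Ifi211 and Ifi47 (0.93 each), and within groups Oasl2 (0.90), Rtp4 (0.87) and Ifi44 (0.86).

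For the receptors the lists held T cell genes such as Lck, Cd2 and Cd8a. For Cxcr3 they were Lck, Cd2 and Gimap1 (0.94, 0.94 and 0.93), and within groups Traf3ip3, Cd2 and Gimap1 (0.88, 0.88 and 0.87). For Cxcr6 they included Trbc2 (0.96) and Gimap3 (0.95), and within groups Cd8b1 and Cd8a (0.90 and 0.89). For Cxcl16 they were Cndp2, Cotl1 and Selplg (0.96 each), and within groups the complement genes C1qc (0.97), C1qb (0.96) and C1qa (0.94), which macrophages express.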

How the data were processed

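RNA of 46 samples was sequenced by the authors from a stranded, ribosome-depleted total RNA kit with paired reads of 50 bases, aligned to mouse build B38 with the Omicsoft aligner and quantified on Ensembl gene models. The values deposited by the authors are FPKM for 48795 genes, with no counts, so the authors' DESeq2 test on counts was replaced by limma 3.58.1 (R 4.3.3) on log2(FPKM + 0.1). A gene entered a fit of the 2 groups compared when 1 of them averaged 0.5 FPKM or more, eBayes used a trend, and Benjamini-Hochberg adjustment covered all tested genes. Genes were called below an adjusted p of 0.01 if they also changed 2-fold or more, a limit not applied to contrasts between effects. The limma and permutation steps were tested on simulated data. Ratios and correlations used permutation tests. Those of ratios were exact in the antibody study and used 100000 resamples in the deletion study, apart from tests within pairs, which were exact. Those of correlations were exact below 10 values and otherwise used 100000 resamples. Symbols came from GENCODE M21 for 99.3% of genes. Groups came from the labels, which do not say more of how replicates were obtained than that they are separate samples, so p-values measure the spread between these samples.

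The 6 genes and the gene lists were chosen with earlier results of these data known. Named genes are the 6, the called genes with the 3 largest changes of each pathway list, a short fixed set (among them Ifng, Irf1, Pf4, Ackr3, Dpp4, Adam10, Adam17), genes that overlap a member, and the 3 nearest genes by correlation. Symbols that match more than 1 identifier (Ccl19, Ccl21a, Ccl21b, Ccl27) were left out of counts. Values of some genes that this rule names are not reported here. Alternatives covered the pseudocount, filter, scaling, model, replicate number, identifier run and each sample left out.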

Additional observations from a re-analysis of the deposited data

Results flagged for a closer look

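Single tumors stood apart from their own group by Dixon's gap test, which marks about 1 group in 20 by chance, in 4 of 36 tests of a member within a group of 5 or 10 tumors. PD-1 Ab tumor 4 of the 2-dose group was the highest of its group in Cxcl10, at 318 FPKM, and the gap to the next tumor made up 0.905 of the range on the log2 scale. PD-1 Ab tumor 5 of the 2-dose group was the lowest in both Cxcr3, at 0.755 FPKM, and Cxcl16, at 76.9 FPKM. WT tumor 3 of the deletion study was the highest in Cxcr6, at 10.7 FPKM.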

How the results depend on the processing

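The 7 comparisons, 12 ratios and 10 correlations were recomputed under other pseudocounts, filters, scalings and models and with each sample left out. Where a value or call moved, the cause was not tested unless fewer genes or samples explain it by construction. After 2 doses, 5 of 6 members were called; 2 were called with no filter, 3 with all groups in 1 fit, and 2 to 6 when single tumors were left out (2 without PD-1 Ab tumor 3, and 3 without PD-1 Ab tumor 1, 2 or 4 or isotype tumor 2). In PD-1cKO tumors 2 were called, and 0 with the identifier run as a covariate. With array weights, 3 members (Cxcl9, Cxcl11, Cxcr6) passed for the 2-dose effect minus the PD-1cKO effect and 2 (Cxcl16, Cxcr6) for the 2-dose effect minus the 1-dose effect, against 0 in each without them. Members called did not move by over 1.5 times in the 1-dose, culture and baseline comparisons.

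Over all genes, the 799 calls of the 2-dose comparison became 450 with no filter, 1773 with array weights and 375 to 1534 with a tumor left out. The 1217 calls in PD-1cKO tumors became 617 with 1 FPKM added, 589 with array weights, 0 with the run covariate and 743 to 1871 with a tumor left out. Their split of 633 higher and 584 lower became 924 and 339 by median of ratios, 945 and 315 by upper quartile and 832 and 331 on protein-coding totals. The 0 calls after 1 dose became 2 on protein-coding totals, 10 in 1 fit of all groups, 22 with array weights and up to 7 with a tumor left out. The 89 calls for baseline tumors became 135 with 1 FPKM added, 57 with no filter, 149 in 1 fit, 398 with array weights and 13 to 166 with a tumor left out. The 16 for the 2-dose minus the PD-1cKO effect ranged from 0 in 1 fit to 938 with array weights, with 43 for 1 FPKM added, 33 for no filter, 9 for median-of-ratios and for protein-coding scaling, 1 for upper quartile and 2 to 61 with a tumor left out. The 0 for the 2-dose minus the 1-dose effect became 1 with no filter and 1048 with array weights.

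Replicate numbers did not pair the samples, since same-numbered samples had correlations of -0.26 to 0.19 and at most 1 pair of a comparison was over 0.1. With a replicate block, 3 members and 316 genes were called after 2 doses, and 1 gene was called for baseline tumors. Cxcr6 then lost its call against cultures (log2 difference 2.09, adjusted p = 0.0186 by limma). The Cxcr6 to CD3 differences of 0.96 after 2 doses and 0.54 in PD-1cKO tumors had an adjusted p of 0.25 each by permutation within pairs. With the 5 pairs of the 2-dose comparison, such a test cannot give a p under 0.05 whatever the values.

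Small differences changed sign. In PD-1cKO tumors, Cxcl10 was at 0.31 with array weights, at -1.23 with the run covariate and at -0.37 to 0.14 with a tumor left out, and Cxcl11 at -0.41 to 0.011. For baseline tumors, Cxcl16 was at 0.10 with array weights and at -0.39 to 0.045 with a tumor left out, and Cxcr6 at -0.12 to 0.85. For the 2-dose minus the PD-1cKO effect, Cxcl16 was at -0.19 by median of ratios, -0.24 by upper quartile, -0.054 on protein-coding totals and -0.056 to 0.15 with a tumor left out. For the 2-dose minus the 1-dose effect, Cxcl10 was at 0.25, 0.18 and 0.27 under these scalings, 0.66 with array weights and -0.25 to 0.25 with a tumor left out.

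With 1 FPKM added, which weighs low Cxcr3 values less, the ratio differences were -0.64 for Cxcr3 to CD3, 1.36 for Cxcr6 to Cxcr3 and 0.47 for Cxcl9 to Cxcl10 after 2 doses, -0.82 for Cxcr3 to CD3 after 1 dose, and -0.056 for Cxcr3 to CD3 and 0.65 for Cxcr6 to Cxcr3 in PD-1cKO tumors. Both Cxcr6 to Cxcr3 differences, Cxcl9 to Cxcl10 and the 1-dose value then had an adjusted p under 0.05. By median of ratios the 1-dose Cxcr6 to Cxcr3 difference was -0.016. With single tumors left out, Cxcr3 to CD3 after 2 doses ranged from -0.22 to 0.41, Cxcr6 to CD3 from -0.69 to 0.13 after 1 dose and from 0.44 to 0.64 in PD-1cKO tumors, Cxcr6 to Cxcr3 from -0.26 to 0.84 after 1 dose, and Cxcl9 to Cxcl10 from -0.025 to 0.23 after 1 dose and from -0.38 to 0.058 in PD-1cKO tumors.

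By median of ratios, r was 0.65 for Cxcl9 with Ifng in PD-1cKO and 0.65 for Cxcl10 with Cxcr3 in WT tumors, neither passing. In the largest run alone, with fewer tumors, r was -0.73 for Cxcl10 with Cxcr3, 0.80 for Cxcr3 with Cxcr6 and 0.80 for Cxcl9 with Ifng in PD-1cKO and 0.70 for Cxcl10 with Cxcr3 in WT tumors, none passing. With single tumors left out, r ranged from 0.68 to 0.83 for Cxcl9 with Ifng in PD-1cKO, and in WT tumors from 0.21 to 0.70 for Cxcl9 with Cxcr3, 0.52 to 0.81 for Cxcl10 with Cxcr3, 0.69 to 0.88 for Cxcr3 with Cxcr6 and 0.62 to 0.90 for Cxcl9 with Ifng. FPKM without counts give no depth, so what can be detected at the low levels of Cxcr3 and Cxcl11 is unknown.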

Other observations

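Other chemokines showed which further signals changed beside the CXCR3 and CXCR6 axes. After 2 doses of PD-1 Ab, 4 of 23 tested ligands outside the axes were called higher by limma and 1 lower. Of all 15062 genes tested, 5.03% were called higher and 41 genes lower. Ccl5, Ccl3 and Ccl4, which attract T cells and myeloid cells, had log2 fold changes of 2.45 (SE 0.31), 2.33 (SE 0.32) and 2.24 (SE 0.32), and Ccl5 ranged from 21.9 to 57.2 FPKM in isotype and from 101 to 306 FPKM in PD-1 Ab tumors. Cxcl1, a neutrophil attractant of the CXCR2 axis, fell by 1.81 on the log2 scale (SE 0.24), from a median of 15.7 to 4.16 FPKM. Of 8 tested receptors 3 were called higher, among them Xcr1 (1.98, SE 0.33) and Cx3cr1 (1.25, SE 0.26).

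In PD-1cKO tumors, 6 of 23 tested ligands were called higher and 2 lower. Of all 15075 genes tested, 4.2% were called higher and 584 genes lower. Ccl8 (1.63, SE 0.39), Ccl6 (1.58, SE 0.33) and Cxcl12 (1.58, SE 0.35) had the largest rises, and Cxcl1 fell by 1.18 (SE 0.27) and Ccl2, the ligand of CCR2, fell by 1.42 (SE 0.28) on the log2 scale. Of 8 tested receptors Ccr8, found on tumor regulatory T cells, was called higher (1.28, SE 0.27). After 1 dose Ccl8, named here after its values were seen, had a log2 fold change of 2.28 (SE 0.27, adjusted p = 0.033 by limma) and was not called.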
